A study of Drosophila melanogaster and Drosophila persimilis and Drosophila pseudoobscura with 5 samples.

Results

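Phototransduction is the signalling cascade with which fly photoreceptors turn light into a change of membrane voltage. Light-activated rhodopsin drives a Gq protein onto a phospholipase C, the breakdown of membrane phosphoinositides opens TRP channels, and arrestins then bind rhodopsin and end its activity. Several of these proteins, the visual arrestins and TRP channels among them, are also known from Johnston's organ, with which flies hear and which lies in the antenna's second segment. The genes described here were chosen by name as cascade genes also known from the hearing organ, 10 in all: the arrestins Arr1 and Arr2, the channels trp and trpl, the phospholipase C norpA, the eye protein kinase C inaC, the scaffold inaD, the myosin and kinase ninaC, the diacylglycerol kinase rdgA, and the lipid phosphatase laza. They were found by name in the authors' cross-species table, which holds 8180 genes under D. melanogaster symbols. Of these genes 7 had a row there. norpA, ninaC and rdgA had none, and are described from the D. melanogaster read counts only.

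Johnston's organ of adult flies was sequenced as RNA in D. pseudoobscura and D. persimilis, of the obscura species group, and in D. melanogaster, D. simulans and D. yakuba, of the melanogaster species group, with 1 library per species. Per the labels, all flies were kept at 25 °C on the usual food, and no species received a treatment. The labels name neither strain nor sex, nor how many flies were pooled, and the codes after the species names in the table's column headers (with "mix" for D. melanogaster) are not explained. With 1 library per species no difference has a replicate check and no test was run, so "higher" and "lower" are said of these libraries alone. In bulk RNA, fewer cells of a type and less RNA per cell cannot be told apart. Levels are the authors' signal, read here as reads per gene length with an equal upper quartile in all libraries, times 1 common factor of 1.09.

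The libraries held 12908479 counted reads in D. pseudoobscura, 9236301 in D. persimilis, 22391819 in D. melanogaster, 7580214 in D. simulans and 13916387 in D. yakuba. Of the 13 chordotonal markers listed for Johnston's organ 8 had a row in the table. Their summed signal was 68.6 in D. pseudoobscura and 29.2 in D. persimilis, against 142.8 in D. melanogaster, 45.9 in D. simulans and 119 in D. yakuba. The proneural gene atonal was at 0 in all 5 libraries, and the TRPV channel subunit nan was at 0.0910 in D. simulans, against 7.78 to 14.7 in the other libraries. The marker Rootletin went the other way, at 24.5 in D. simulans, against 0 to 15.3 in the others. In D. persimilis, which had the lowest sum, nompB was at 0.289, against 3.48 to 13.5 in the others. Rootletin was at 0.0674 there and at 0 in D. pseudoobscura. The markers nompC, Dhc93AB and CG6053 were, like nan, lowest in D. simulans. They were at 0.932, 4.71 and 11.7 there, against 0.959, 5.35 and 14.6 in D. persimilis. The marker nompA was lowest in D. melanogaster, at 0.150, against 0.158 in D. persimilis. Of 16 markers of the retina 12 had a row, and their summed signal was 5231 in D. simulans, against 14.9 in D. pseudoobscura, 46.2 in D. persimilis, 75.8 in D. melanogaster and 200.1 in D. yakuba. Among the retina markers, 9 were at 0 in D. pseudoobscura, 8 in D. persimilis, 1 in D. melanogaster, 2 in D. simulans (gl and oc) and 2 in D. yakuba. ninaE alone made up 4604 of the D. simulans sum, and 5 of the 12 markers are rhodopsins that also belong to the cascade. Summed markers of 2 other tissues were highest in D. simulans too, 21548 for the fat body, against 1119 to 13967, and 1132 for haemocytes, against 142 to 439. The fat body sum was nearly all Yp1 (8974) and Yp2 (12561) in D. simulans. The fat body markers Lsp2 and Fbp1 were instead highest in D. melanogaster, at 494 and 3.59, against 11.1 and 1.35 in D. simulans. Summed markers of the olfactory segment, muscle and neurons at large were highest in D. pseudoobscura (104838), D. persimilis (43968) and D. pseudoobscura (93.7). The odorant-binding protein gene Pbprp2 alone made up 53630 of that olfactory sum. The odorant co-receptor Orco was highest in D. yakuba (678, against 376 in D. pseudoobscura), and Obp56d in D. melanogaster (10090, against 706). The muscle sum of D. persimilis was nearly all Mlc1 (23698) and Mlc2 (18825), while TpnC41C was highest in D. pseudoobscura (794, against 713 in D. persimilis). Syt1 made up 79.0 of the neuron sum of D. pseudoobscura, while brp was highest in D. melanogaster (3.44, against 1.32 in D. pseudoobscura). The D. simulans library thus stands apart in its summed retina markers. The comparisons between species groups and the spans of ratios are given with and without that library.

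In the D. melanogaster library the 10 genes together had 5988 of the 22391819 reads. Levels of different genes are compared per kilobase of exon, with 95% exact Poisson intervals that cover counting error only. Arr2, the more abundant arrestin of the photoreceptor (3L:8647261-8648936, minus strand, BDGP6), had 908 reads and the highest level of the 10, 587 reads per kilobase (549 to 626). rdgA, which turns diacylglycerol into phosphatidic acid (X:8907068-9029476), came next with 3473 reads and 252 per kilobase (244 to 261). Both stood clear of their neighbours in the order.

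Arr1 (2L:18078269-18081307), the other visual arrestin, had 232 reads, 93.7 per kilobase (82.03 to 107). norpA (X:4322626-4365408), the phospholipase C at the centre of the cascade, had 762 reads and 91.9 per kilobase (85.4 to 98.6), a level that its interval does not part from that of Arr1. Arr2 thus had more reads per length than Arr1 in the same library, with intervals far apart.

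The 2 channel genes came next at nearly equal levels. trpl (2R:9753697-9765518), which encodes the second light-activated channel, had 169 reads and 43.4 per kilobase (37.1 to 50.5). trp (3R:29914521-29920289), the founding member of the TRP channel family, had 166 reads and 40.01 per kilobase (34.2 to 46.6).

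The remaining 4 genes had the fewest reads. inaD (2R:22855688-22858794), the scaffold that holds TRP, the phospholipase C and the protein kinase C together, had 79 reads and 33.9 per kilobase (26.8 to 42.2). ninaC (2L:7377702-7384344), an unconventional myosin with a kinase domain, had 134 reads and 24.7 per kilobase (20.7 to 29.3). The levels of laza (3L:22458816-22461131) and inaC (2R:16898535-16901575) were the lowest, with 43 reads and 18.6 per kilobase (13.4 to 25.01) for laza, and 22 reads and 9.36 per kilobase (5.86 to 14.2) for inaC. From trpl down to inaC every interval overlapped that of its neighbour in the order. Exons of inaD shared 7 bases with RpL23 on the other strand, and the exons of the other 9 genes overlapped no other gene in the annotation. The main rhodopsin of the outer photoreceptors, ninaE, was at 866 reads per kilobase (821 to 913), above Arr2.

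**Figure D1:**
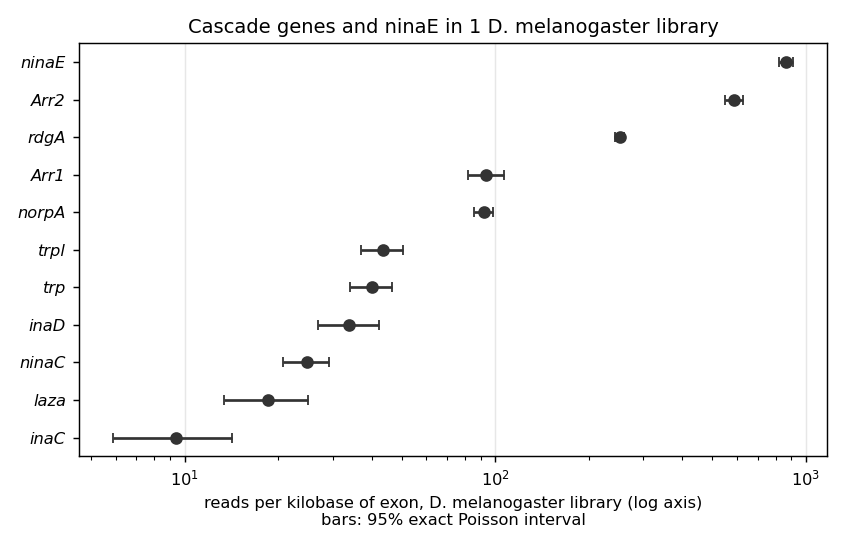
Reads per kilobase of exon (log axis) of the 10 cascade genes and of ninaE in the D. melanogaster library, with 95% exact Poisson intervals as bars. Arr2 at 587 and rdgA at 252 stand clear of the rest, while the intervals of trpl, trp, inaD, ninaC, laza and inaC overlap from each gene to the next.

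Across species, D. simulans was the library with the highest level for 6 of the 7 cascade genes with a row, and D. yakuba for the remaining gene, laza. Arr2 had a signal of 2172 in D. simulans, against 99.6 in D. yakuba, 40.1 in D. persimilis, 38.4 in D. melanogaster and 0 in D. pseudoobscura, 21.8-fold above the next library. It ranked 131st by level of the 8180 genes in D. simulans, 956th in D. yakuba, 1983rd in D. persimilis and 2012th in D. melanogaster. D. persimilis and D. melanogaster, from different species groups, differed by a ratio of only 1.04 in Arr2.

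Arr1 had a signal of 469.5 in D. simulans, against 50.7 in D. persimilis, 24.4 in D. yakuba, 6.88 in D. melanogaster and 3.71 in D. pseudoobscura, a fold of 9.27 over the next library. Arr1 is the only one of the 7 genes above 0 in all 5 libraries. Its order differs from that of Arr2, because D. persimilis lies above D. yakuba, and the closely related D. persimilis and D. pseudoobscura are 13.6-fold apart.

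The channels followed D. simulans as well, less so for trpl. trp had a signal of 87.4 in D. simulans, against 8.10 in D. yakuba, 2.62 in D. melanogaster, 0.117 in D. persimilis and 0 in D. pseudoobscura, 10.8-fold above the next library. trpl had a signal of 11.5 in D. simulans, against 2.84 in D. melanogaster, 1.82 in D. yakuba and 0 in both D. persimilis and D. pseudoobscura, 4.05-fold above the next. trpl is the only one of the 7 that was lower in D. yakuba than in D. melanogaster.

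The kinase and the scaffold of the signalling complex had the same leading library. inaC, the eye-specific protein kinase C, had a signal of 70.9 in D. simulans, against 1.09 in D. yakuba, 0.624 in D. melanogaster, 0.104 in D. persimilis and 0 in D. pseudoobscura. Its fold over the next library, 65.0, was the highest of the 7 genes. inaD had a signal of 47.9 in D. simulans, against 6.68 in D. persimilis, 3.43 in D. yakuba, 2.22 in D. melanogaster and 0 in D. pseudoobscura, a fold of 7.17.

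laza did not share this pattern. The lipid phosphatase, which turns phosphatidic acid back into diacylglycerol and so counters rdgA, had a signal of 27.3 in D. yakuba, against 6.91 in D. simulans, 1.21 in D. melanogaster and 0 in both D. pseudoobscura and D. persimilis, 3.95-fold above the next library. It was 22.4-fold higher in D. yakuba than in D. melanogaster. In D. melanogaster that level rests on the 43 reads given above.

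**Figure D2:**
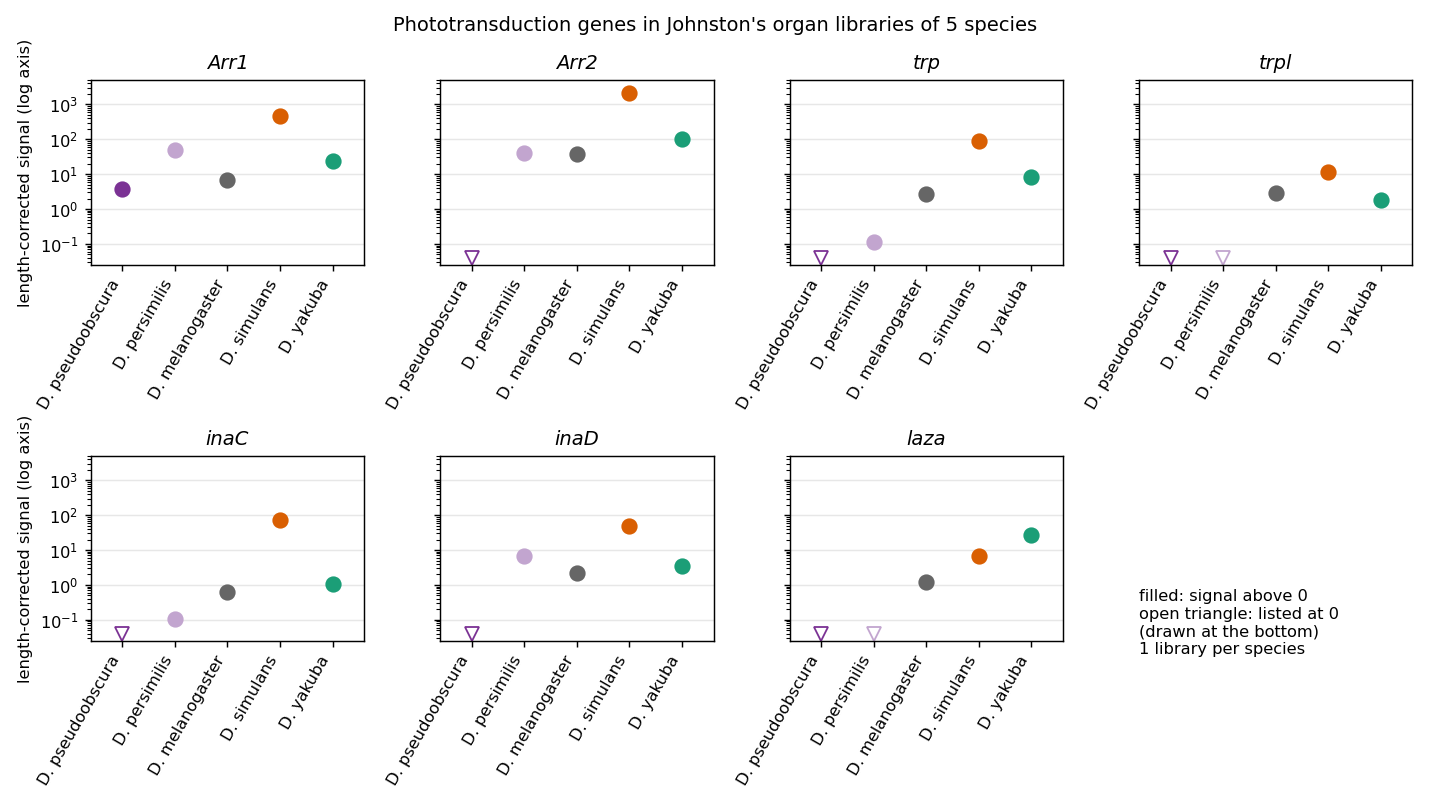
Length-corrected signal (log axis) of the 7 cascade genes with a row in the cross-species table, 1 panel per gene and 1 point per library, with genes listed at 0 drawn as open triangles at the bottom. D. simulans is highest in every panel except that of laza, where D. yakuba leads at 27.3.

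A gene was said to set a library apart when its signal plus 1 was at least 2-fold above, or below, that of every other library. By this rule 6 of the 7 genes were higher in D. simulans than in the other 4 libraries, Arr1, Arr2, trp, trpl, inaC and inaD, where 5.26% of all 8180 genes were. Of the 5089 genes with a mean signal of at least 5, which leave out trpl, 5.6% were. With 1 added to each signal the folds were 34.4 for inaC, 21.6 for Arr2, 9.71 for trp, 9.11 for Arr1, 6.37 for inaD and 3.25 for trpl. Among all 8180 genes ordered by this fold, with no filter, inaC stood at position 11, Arr2 at 19, trp at 43, Arr1 at 45, inaD at 85 and trpl at 194, while laza stood at position 5964. Set against D. melanogaster alone, all 7 genes were at least 2-fold higher in D. simulans, by the signal plus 1, where 17.1% of all genes were. The ratio of the signals was 114 for inaC, 68.3 for Arr1, 56.6 for Arr2, 33.4 for trp, 21.6 for inaD, 5.68 for laza and 4.05 for trpl. With library totals made equal, trpl was no longer called against the other 4 libraries. Of the 12 retina markers 8 were also higher in D. simulans by the rule, 5 of them rhodopsins. The markers eys, gl, bw and oc were highest in other libraries, eys with 5.05 in D. melanogaster, against 1.02 in D. simulans, and gl with 2.70 in D. yakuba, against 0. The part of the retina markers in the result was not tested.

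**Figure D3:**
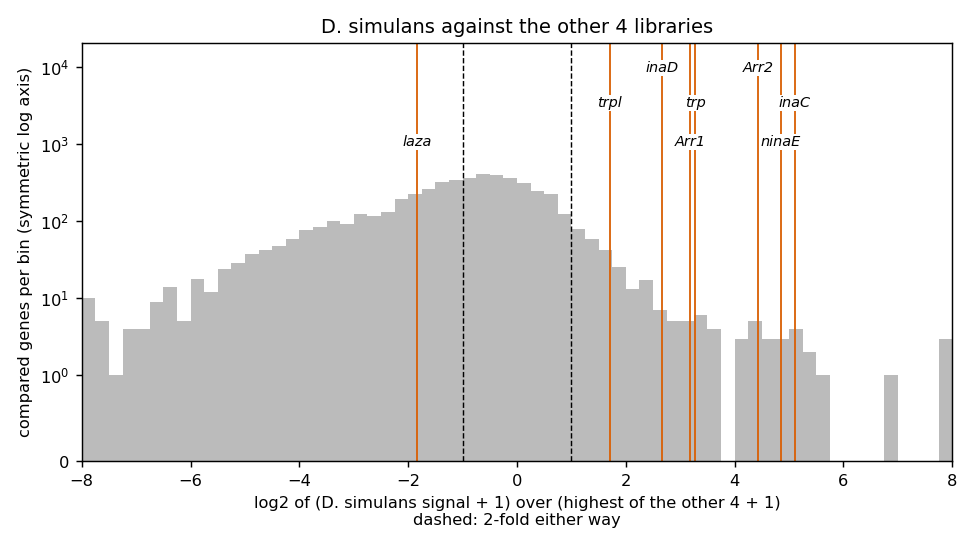
Distribution over the 5089 compared genes of the log2 ratio of D. simulans signal plus 1 over the highest of the other 4 libraries plus 1, with genes beyond the axis placed in the end bins and counts on a symmetric log axis. Orange lines mark ninaE and the 7 cascade genes (trpl is below the expression filter), of which 6 lie beyond the dashed 2-fold line on the D. simulans side and laza lies on the other side.

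Of the 7 genes 6 passed the filter of a mean signal of at least 5, and trpl did not. Without D. simulans in the mean 3 would have passed, Arr1, Arr2 and laza, so trp, inaC and inaD entered the compared genes through the library in which they were high. laza was the gene set apart in D. yakuba, where 3.29% of all genes were higher by the rule. With the D. simulans library left out, Arr2 and trp joined it, 3 of 7 genes, where 5.09% of all genes were higher in D. yakuba than in each of the other 3. Arr1 was then higher in D. persimilis than in each of the other 3, as 5.24% of all genes were.

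D. yakuba and D. melanogaster were also compared directly. By the signal plus 1, 4 of 7 genes were at least 2-fold higher in D. yakuba, where 14.4% of all 8180 genes were: Arr1, Arr2, trp and laza. The ratio of the signals was 3.54 for Arr1, 2.59 for Arr2, 3.09 for trp, 1.75 for inaC, 1.55 for inaD and 0.641 for trpl, beside the 22.4 of laza. ninaE had a signal of 159 in D. yakuba, against 56.3 in D. melanogaster, and the summed retina markers, 200.1 and 75.8, stood in the same direction. Their part in these ratios was not tested.

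The species groups were then set against each other. A gene was called lower in the obscura group when both of its libraries lay at least 2-fold, by signal plus 1, below all 3 of the melanogaster group. Of the 7 genes 3 were lower in this way, trp, trpl and laza, where 4.68% of all 8180 genes were. Of the compared genes, which leave out trpl, 5.86% were. None of the 7 genes was higher, where 3.51% of all genes were. For all 3 genes the highest obscura group level was 0.117 or less, while the lowest melanogaster group levels were 2.62 for trp in D. melanogaster, 1.82 for trpl in D. yakuba and 1.21 for laza in D. melanogaster. With D. simulans left out the same 3 genes were called, where 9.21% of all genes were. These are low signals, and the 3 calls were lost with a gap of 4-fold and when a trend of each library on gene length was removed. trp, for example, was with the trend removed at 0.605 in D. persimilis and at 1.52 in D. melanogaster. Of the 12 retina markers 4 were also lower in the obscura group, ninaE, Rh4, Rh6 and chp, and their sums were 14.9 in D. pseudoobscura and 46.2 in D. persimilis, against 75.8 in D. melanogaster, 5231 in D. simulans and 200.1 in D. yakuba. Their part in the result was not tested.

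The arrestins were not parted by species group. The D. persimilis signals of Arr1 (50.7) and Arr2 (40.1) lay above the D. melanogaster signals (6.88 and 38.4), and inaD was likewise at 6.68 in D. persimilis, against 2.22 in D. melanogaster. On the log2(signal + 1) scale, the mean of the obscura group minus that of the melanogaster group was -1.54 for Arr1, -5.00 for Arr2, -3.76 for trp, -2.98 for laza, -2.36 for trpl, -2.57 for inaC and -1.68 for inaD. The median over the 7 genes was -2.57, beside -0.03 over all 8180 genes. These differences include libraries listed at 0 for every gene but Arr1, so their size depends on the 1 added and is no fold. Without D. simulans they were 0.14 for Arr1, -3.30 for Arr2, -2.44 for trp, -2.98 for laza, -1.72 for trpl, -0.81 for inaC and -0.45 for inaD. The median was then -1.72, beside -0.07 over all genes, and Arr1 had turned in direction. Without D. pseudoobscura, which is at 0 for Arr2, the difference of Arr2 was -2.32.

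The obscura group libraries differed from each other in these genes. Of the 7 genes 6 were listed at 0 in D. pseudoobscura, where 26.2% of all 8180 genes were, and 2 in D. persimilis, where 26.9% were. By signal plus 1, Arr1, Arr2 and inaD were at least 2-fold higher in D. persimilis than in D. pseudoobscura, 3 of 7, where 15.7% of all genes were. Arr2 and inaD were the genes set apart as lower in D. pseudoobscura than in all other libraries, where 4.32% of all genes were. With D. persimilis left out, D. pseudoobscura lay below all 3 melanogaster group libraries in 5 of 7 genes, Arr2, trp, laza, trpl and inaD, where 9.29% of all genes did so. How genes were matched between species is not stated, so a value of 0 outside D. melanogaster may be a gene without a match. The calls of Arr2 and inaD against D. pseudoobscura rest on such a 0 and on the 1 added, and no fold of the signals is given for them. In D. melanogaster all 1353 table genes listed at 0 and matched to the counts had no read. ninaE was above 0 in both, at 13.5 in D. pseudoobscura and 26.5 in D. persimilis.

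Ratios within a library do not depend on the scaling between libraries. The ratio of Arr2 to Arr1 was 0.791 in D. persimilis, against 5.58 in D. melanogaster, 4.63 in D. simulans and 4.09 in D. yakuba. It spanned 1.37-fold among the 3 melanogaster group libraries. The ratio of trpl to trp was 1.09 in D. melanogaster, 0.132 in D. simulans and 0.225 in D. yakuba, so that trpl was near the level of trp in D. melanogaster and well below it in D. simulans and D. yakuba. The ratio of laza to trp was 0.464 in D. melanogaster, 0.0791 in D. simulans and 3.37 in D. yakuba, a span of 42.6-fold, and of 7.26-fold without D. simulans.

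Set against ninaE of the same library, a measure chosen after the values had been seen, the genes fell into unlike patterns. Arr2 over ninaE was 0.682 in D. melanogaster, 0.472 in D. simulans and 0.626 in D. yakuba. Arr1 over ninaE was 0.122 in D. melanogaster, 0.102 in D. simulans and 0.153 in D. yakuba. The Arr2 ratio spanned 1.45-fold over these 3 libraries, where the Arr2 signal spanned 56.6-fold, and without D. simulans these spans were 1.09-fold and 2.59-fold. With D. simulans included, the proportion of each arrestin to this rhodopsin thus varied far less than its level in the melanogaster group. This was not particular to the arrestins, and held for inaC, trp and inaD too.

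inaC over ninaE spanned 2.24-fold, trp 2.68-fold and inaD 3.79-fold in these 3 libraries, where their signals spanned 114-fold, 33.4-fold and 21.6-fold. For trpl and laza the ratio spanned more than the signal, which spanned 6.32-fold and 22.4-fold. The ratio of trpl spanned 20.2-fold, with 0.00250 in D. simulans and 0.0504 in D. melanogaster. That of laza spanned 114-fold, with 0.00150 in D. simulans and 0.171 in D. yakuba. Between D. yakuba and D. melanogaster alone the ratios to ninaE differed 1.09-fold for trp, 1.62-fold for inaC, 1.82-fold for inaD, 4.41-fold for trpl and 7.95-fold for laza. In D. persimilis the arrestins exceeded ninaE, with 1.91 for Arr1 and 1.51 for Arr2, and inaD was at 0.252, while trp was at 0.00441 and inaC at 0.00394. In D. persimilis, then, the levels of Arr1, Arr2 and inaD relative to ninaE were above those of all 3 melanogaster group libraries. Those of trp and inaC were below, but they rest on D. persimilis signals of only 0.117 and 0.104. In D. pseudoobscura Arr1 over ninaE was 0.275, also above all 3, and the other 6 genes were at 0.

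**Figure D4:**
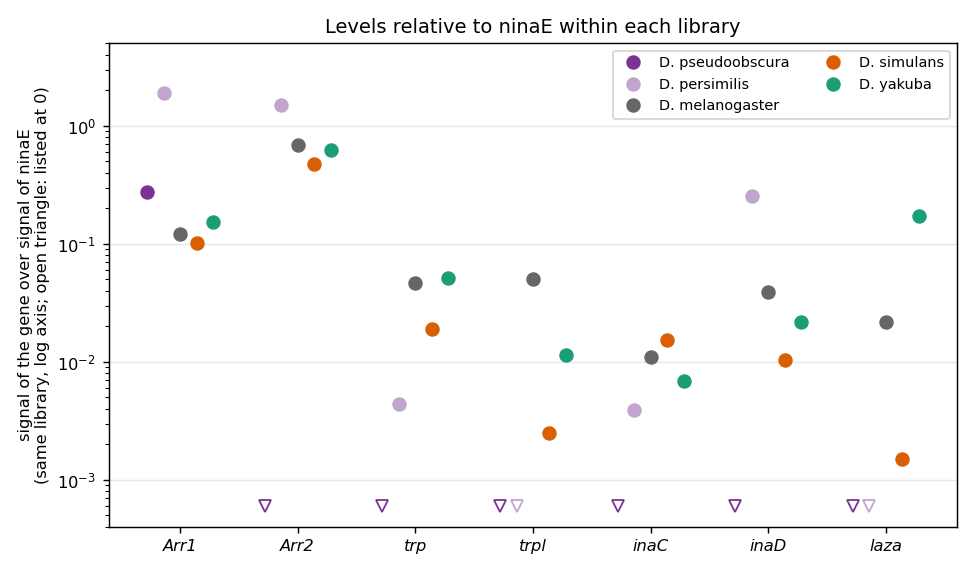
Signal of each of the 7 cascade genes divided by that of ninaE in the same library (log axis), 1 point per library, with genes listed at 0 as open triangles. The points of D. melanogaster, D. simulans and D. yakuba lie close together for Arr1 and Arr2 and far apart for trpl and laza, and D. persimilis is highest for Arr1, Arr2 and inaD.

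Of 42 other phototransduction genes listed, 27 had a row in the table. Of these 11 were higher in D. simulans than in all other libraries by the 2-fold rule, where 5.26% of all genes were, and 2 were lower, where 6.88% were. The higher genes were the rhodopsins ninaE (4604 in D. simulans, against at most 159), Rh2 (8.03, against at most 0.479), Rh4 (367, against at most 17.9), Rh5 (74.2, against at most 17.6) and Rh6 (93.5, against at most 7.97), the Gq alpha subunit Galpha49B (155.9, against at most 27.8), retinophilin (rtp; 294, against at most 25.6), the retinol dehydrogenase Pdh (287, against at most 25.1), stops, which keeps up the level of the phospholipase C (36.7, against at most 5.42), Xport, a chaperone for TRP and rhodopsin (40.6, against at most 9.93), and inaF-B, of a locus needed for TRP function (43.5, listed at 0 in the others). inaF-B and Xport had no counted read in D. melanogaster.

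The 2 genes lower in D. simulans were the kinase Gprk2 (1.25, against at least 4.79) and Pis, which makes phosphatidylinositol (24.6, against at least 114). Calmodulin and the non-visual arrestin did not lead in D. simulans. Calmodulin (Cam) had a signal of 2069 in D. pseudoobscura and 1866 in D. persimilis, against 305 in D. melanogaster, 1339 in D. simulans and 1426 in D. yakuba. The non-visual arrestin krz, a relative of Arr1 and Arr2, had 9.77 in D. pseudoobscura and 0.685 in D. persimilis, against 17.9 in D. melanogaster, 4.63 in D. simulans and 26.8 in D. yakuba.

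Between the species groups 5 of the 27 genes were lower in the obscura group, ninaE, Rh4, Rh6, Galpha49B and Plc21C, where 4.68% of all genes were, and 1 was higher, the carotenoid oxygenase ninaB, where 3.51% were. The median log2 difference of the 27 genes was -1.25, beside the -0.03 of all genes. Without D. simulans the same 5 genes were lower, where 9.21% of all genes were, 2 were higher (ninaB and the retinol dehydrogenase rdhB), where 5.57% were, and the median was -0.78. Galpha49B, now named Galphaq, had 1.15 in D. pseudoobscura and 3.80 in D. persimilis, against 27.8 in D. melanogaster, 155.9 in D. simulans and 26.2 in D. yakuba. Of its 6910 exon bases in D. melanogaster 3050 are shared with CG45086 on the same strand, and reads from those bases cannot be told apart. The phospholipase C Plc21C, a relative of norpA, had 1.57 in D. pseudoobscura and 0.522 in D. persimilis, against 12.3 in D. melanogaster, 4.54 in D. simulans and 6.22 in D. yakuba.

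The remaining calls in the list were few. In D. pseudoobscura 4 of the 27 genes were lower than in all other libraries, Galpha49B, rtp, Pdh and the scavenger receptor ninaD (1.23, against at least 9.56), where 4.32% of all genes were, and 1 was higher, the protein kinase C Pkc53E (13.2, against at most 5.59), where 3.59% were. In D. persimilis 1 was lower, krz, where 5.77% were, and 1 higher, rdhB (131, against at most 61.4), where 3.7% were. In D. melanogaster 2 were lower, Cam and rdhB (4.03, against at least 10.01), where 3.46% were.

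**Figure D5:**
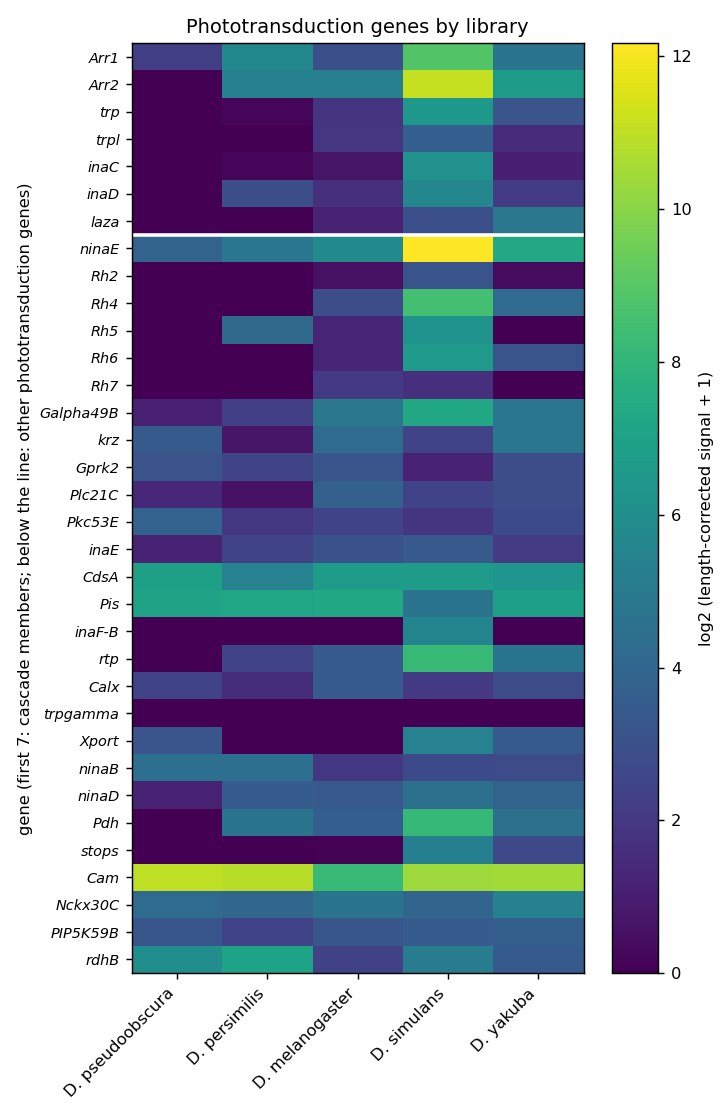
Log2 of signal plus 1 (colour) for the 7 cascade genes, above the white line, and 27 other phototransduction genes, below it, in the 5 libraries in columns. The D. simulans column is brightest for the arrestins, trp and the rhodopsins ninaE, Rh4 and Rh6, while calmodulin (Cam) is bright in all 5 columns.

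The genes with the most similar pattern over the 5 libraries were sought among the 5089 compared genes, by the root mean square difference of log2(signal + 1) after subtraction of each gene's mean. The filter behind the compared genes includes D. simulans, the library through which trp, inaC and inaD passed it. Genes high in D. simulans alone, such as inaF-B and CG33299, passed it likewise. A likeness to trp, inaC or inaD thus rests largely on that 1 library and is a description only. For trp they were Rh6 (0.25), chaoptin (chp, 0.31), a photoreceptor adhesion protein, and CG14629 (0.52). For Arr2 they were Pdh (1.04), rtp (1.05) and the odorant-binding protein Obp99a (1.15), a list with larger differences than that of trp. ninaE itself was at position 8 for trp and at position 7 for Arr2.

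For Arr1 the nearest gene was another of the cascade, inaD (0.65), followed by the small heat shock protein Hsp26 (0.73), msd5 (0.73) and CG30033 (0.74). For inaD they were msd5 (0.18), the cytochrome P450 Cyp309a2 (0.50) and CG30411 (0.53). For inaC they were the eggshell gene Cp19 (0.32), CG33299 (0.39) and inaF-B (0.39). Hsp26 had 1923 in D. simulans, against at most 83.9 elsewhere, and Cp19 had 90.4, against at most 2.58. What the shared pattern of these genes reflects was not tested. For laza they were the pseudouridine synthase Nop60B (0.60), the GAGA factor Trl (0.67) and CG15343 (0.69). ninaE was at position 3405 for laza.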

How the data were processed

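RNA of Johnston's organ was sequenced in 5 species, 1 library each. The submitters' processing notes name TopHat2 (2.0.3) and HTSeq but give no role, and no source used here states how strand or reads with several matches were treated. The deposited counts are whole reads per gene, per the labels on each species' own annotation, with no normalization; only those of D. melanogaster were linked to gene names here. The deposited signal of the cross-species table is not described in the labels. Its 75th percentile was 34.3 in every library, and for 5842 genes with over 20 D. melanogaster reads, signal times exon length over reads lay within 5% of its median for 76.8%. For Arr2, trp, laza, trpl and inaD this ratio equalled the median, for inaC it was 1.02 and for Arr1 1.12 times it. Exon lengths and coordinates are from BDGP6, a later build than the authors' release 5.46. Of the symbols 6465 matched directly and 8087 with older symbols.

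All values were multiplied by 1.09093, a common factor that sets the mean library total and changes no ratio, and calls used signal + 1. No test was run. Every gene that the choice of cascade genes names is printed, the other phototransduction genes that a 2-fold rule called, and the 3 genes nearest in pattern; marker lists are given as sums. The members and lists were chosen with earlier results of these data known, and the pairwise comparisons, the list and ratio values without D. simulans and the positions among all genes were added after the values were seen. Scalings were equal totals, TMM (edgeR 4.0.16) and median of ratios. Pandas 2.3.3 and statsmodels 0.14.6 under Python 3.11.15 were used. Sequences were not used here.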

Additional observations from a re-analysis of the deposited data

How the results depend on the processing

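Of the 6 calls of higher level in D. simulans, all were made under TMM, median of ratios and with the length trend removed, and 5 with equal library totals and with a 4-fold gap (trpl was lost in both); leaving out a library gave 6 to 7 (laza joined without D. yakuba). The calls of lower level in the obscura group, 3 in number, went to 0 with a 4-fold gap and with the length trend removed. They lay between 3 and 5 with a library left out. With the trend removed, trpl was at 0.992 in D. yakuba, against 1.82 before, and laza at 0.865 in D. melanogaster, against 1.21. By signal plus 1, both values miss the 2-fold gap even against a 0. The fitted trend also turned trpl in D. persimilis, listed at 0, into 0.405. Beyond these values the cause was not tested. Lower calls in D. pseudoobscura were 1 with a 4-fold gap, against 2, and 2 to 5 with a library left out; with equal totals or a 1.5-fold gap Arr1 joined, 3 in all. The call of laza in D. yakuba was lost with a 4-fold gap, a count of 0, and the count was 1 to 3 with a library left out. Lower calls in D. persimilis ranged from 0 to 3, lower calls in D. melanogaster from 0 to 1, and higher calls in D. persimilis from 0 to 1. The median log2 difference between species groups was -5.33 with a pseudocount of 0.1, -1.42 with one of 5, and between -3.54 and -1.72 with a library left out. For Arr1 it lay between -3.27 and 0.18, positive without D. pseudoobscura (0.18) or D. simulans (0.14). Of the 3 genes nearest in pattern to each member, 2 or 3 were shared under equal totals and under the largest difference. No paired analysis was possible because each species has 1 library. Depth limits inaC (22 reads) and laza (43 reads) in D. melanogaster most; the reads behind single values of the other libraries are not known.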
